A study of Homo sapiens with 12 samples.

Results

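Apolipoproteins are the protein parts of the lipid particles that liver cells release into plasma. The transcripts described here come from 9 apolipoprotein genes, APOA1, APOA2, APOB, APOC1, APOC2, APOC3, APOE, APOH and APOM, and from MTTP, which encodes the large subunit of the microsomal triglyceride transfer protein. They were taken by symbol, by a rule that uses no measured value, and make 10 of the 47634 gene IDs counted. The cells were HepG2, a hepatocellular carcinoma line (labelled Hep G2) that keeps many functions of hepatocytes and secretes lipoproteins. Its 4 groups of 3 libraries were ATP7B KO cells with copper for 24 h, ATP7B KO cells left untreated, wild type cells with copper for 24 h, and wild type cells left untreated. ATP7B, the gene mutated in Wilson disease, codes for an ATPase that pumps copper out of hepatocytes, and all 4 groups share the HepG2 background. The labels name 1 KO line and do not give the edited position, the number of clones or the copper dose.

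As background, APOB is the scaffold of very low density lipoprotein (VLDL) and of the low density lipoprotein formed from it, and MTTP loads lipid onto APOB in the endoplasmic reticulum. APOA1 and APOA2 are the main proteins of high density lipoprotein (HDL). APOC1, APOC2 and APOC3 are small proteins that move between particles: APOC2 activates lipoprotein lipase, and APOC3 restrains it. APOE is a ligand for uptake receptors, APOH (beta-2-glycoprotein I) binds anionic phospholipids, and APOM carries sphingosine-1-phosphate on HDL. Hepatocyte transcription of many of these genes is known to depend on the nuclear receptor HNF4A.

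The promoter of MTTP is shown because this gene had the steepest fall with copper in KO cells among the members tested with all 12 libraries, while APOC3 fell more steeply without 3 libraries that stood apart from the rest. The window holds 300 bases around the second start listed by RefSeq, chr4:99574574-99574873, plus strand, build GRCh38.p14. The capital letter marks the start site.
MTTP: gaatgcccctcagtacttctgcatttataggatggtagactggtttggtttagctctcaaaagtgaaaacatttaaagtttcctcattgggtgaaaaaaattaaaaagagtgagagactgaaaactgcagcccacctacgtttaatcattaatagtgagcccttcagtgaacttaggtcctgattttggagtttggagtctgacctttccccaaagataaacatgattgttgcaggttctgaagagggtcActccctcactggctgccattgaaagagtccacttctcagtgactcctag
Promoter windows were at hand for 7 of the 10 genes, 10 windows in all, and not for APOA1, APOB and APOC3. The HNF4 cores CAAAGTCCA and CAAAGGTCA were found on either strand in 0 of these 10 windows and in 278 of 35116 RefSeq windows of the same 300 bases (0.792%). The metal response element core TGCGCNC was in 0 of the 10 and in 7012 of all 35116. The motifs were picked after the windows had been read, and no match says only that these letters are not in these windows.

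Libraries held 2388597 to 2807634 counts in copper-treated KO cells, 976658 to 3277087 in untreated KO cells, 1873703 to 2581954 in copper-treated wild type cells and 3561723 to 3829151 in untreated wild type cells. Levels below are CPM, the count over the library total scaled to a common depth (counts per 1e6). The 3′ tag protocol makes about 1 fragment per transcript, so no length correction was applied. A floor of 3 counts equals 0.783 to 3.07 CPM, for counting error only. ATP7B had 3.92, 4.19 and 6.77 CPM in copper-treated KO cells, 9.01, 2.05 and 11.6 CPM in untreated KO cells, 5.34, 3.92 and 3.87 CPM in copper-treated wild type cells, and 12.7, 13.1 and 12.4 CPM in untreated wild type cells. A 3′ tag outside an edit does not check a knockout, and where the gene was edited is not stated. All 9 hepatocyte and HepG2 markers, from ALB to GPC3, were detected in every library, and their summed level was 3549 to 3871 CPM in copper-treated KO cells, 6686 to 10279 CPM in untreated KO cells, 11722 to 12823 CPM in copper-treated wild type cells and 26549 to 27038 CPM in untreated wild type cells. The hepatocyte and HepG2 markers did not move alike. GPC3 had 21.5 to 37.4 CPM over the KO libraries and 919 to 1887 CPM over the wild type libraries. FGB had 240 to 301 CPM in untreated KO cells and 204 to 222 CPM in untreated wild type cells. Macrophage markers summed to at most 2.14 CPM, with MARCO and C1QA at 0. Endothelial markers reached at most 10.2 CPM, with KDR at 0, and stellate and fibroblast markers ran from 2.77 to 55.7 CPM. Intestinal markers were nearly all VIL1, with FABP2 at most 1.58 CPM, and summed to 31.0 to 47.8 CPM in copper-treated KO cells, 104 to 132 CPM in untreated KO cells, 52.3 to 61.0 CPM in copper-treated wild type cells and 110 to 135 CPM in untreated wild type cells. Mitochondrial transcripts took 8.34 to 9.46% of counts in copper-treated KO cells, 5.82 to 8.85% in untreated KO cells, 6.58 to 8.59% in copper-treated wild type cells and 2.97 to 3.80% in untreated wild type cells. The part of these levels in the results below was not tested.

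Libraries 1 and 2 of untreated KO cells and library 1 of copper-treated wild type cells stood apart on the first principal component, at 111.4, 120.4 and 23.9, while the other 9 libraries were below 0. Results are therefore given with all 12 libraries and, for many of them, also without these 3. In the fit without them a lone untreated KO library, replicate 3, is assumed to vary like the other groups. Its log2 CPM had a Pearson r of 0.824 with library 1 and 0.798 with library 2. Libraries 1 and 2 had an r of 0.927 with each other. The assumption was not tested, and adjusted p of that fit for comparisons with untreated KO cells hold no spread between untreated KO libraries.

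Apolipoprotein transcripts took a smaller share of the library in copper-treated cells of either genotype than in their untreated counterparts. The 10 genes together held 3186, 3508 and 3426 CPM in copper-treated KO cells, 6374, 6044 and 7766 CPM in untreated KO cells, 4333, 4525 and 4384 CPM in copper-treated wild type cells, and 8237, 8181 and 8144 CPM in untreated wild type cells. The sums of the 4 groups do not overlap, and copper-treated KO cells were lowest. In bulk samples, fewer cells of a type and less RNA per cell cannot be told apart. Of the 10 genes, 9 passed the low-count filter, and APOC2 did not. APOC2 (ENSG00000234906.4) had 1 count in library 1 of copper-treated wild type cells, 1 count in library 1 of untreated wild type cells and 0 in the other 10 libraries. It shares 55.4% of its exon bases in GENCODE v29, the 3′ end included, with the readthrough gene APOC4-APOC2, so the counting may have discarded reads shared by the pair, and nothing is said of its expression.

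Of the 9 tested members, 5 fell with copper in KO cells, APOA1, APOB, APOC3, APOE and MTTP, and 0 rose, where 18.5% of the 11051 genes tested fell and 15.2% rose. In wild type cells 4 fell with copper, APOA1, APOA2, APOC3 and MTTP, and 0 rose, where 6.68% of all genes fell and 8.23% rose. Untreated KO cells had lower APOA1, APOA2, APOC1, APOC3 and MTTP than untreated wild type cells, 5 of 9, where 14.0% of all genes were lower and 17.9% higher. Between the copper-treated groups KO cells had lower APOC3 and MTTP, 2 of 9, where 8.03% were lower and 5.77% higher. The median log2 fold change of the 9 was -1.13 for copper in KO, -1.19 for copper in wild type, -1.10 between the untreated lines and -0.66 between the copper-treated lines, beside medians of 0.01, -0.03, -0.02 and 0.05 over all genes tested. Replicate CPM did not overlap between groups for 6, 8, 7 and 5 of the 9 in these comparisons, in that order, against 44.3%, 48.4%, 44.7% and 46.3% of all genes.

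Without the 3 libraries that stood apart, the number lower was 8 for copper in KO (all but APOM), where 20.5% of 11955 genes tested fell and 19.1% rose, and 8 for copper in wild type (all but APOB), where 19.6% fell and 20.4% rose. It was 6 for KO against wild type untreated (APOA1, APOA2, APOC1, APOC3, APOM and MTTP), where 17.7% were lower and 16.8% higher, and 6 in copper (APOA1, APOA2, APOC1, APOC3, APOE and MTTP), where 20.6% were lower and 17.3% higher. The number higher was 0 in all 4 comparisons, with and without these libraries. Leaving out library 3 of untreated KO cells in place of these 3 gave a different set. With copper in KO cells 5 members fell and 2 rose, APOC1 at 0.70 and APOH at 1.10 (adjusted p = 0.0035 each), where 28.2% of 11429 genes fell and 29.9% rose. Between untreated KO and untreated wild type cells APOB and APOE were higher, at 0.67 and 0.83 (adjusted p = 0.0072 and 0.0088), where 30.2% of genes were lower and 28.8% higher. The results for APOC1, APOE and APOH thus depended on which libraries stood for untreated KO cells. The falls of APOA1, APOC3 and MTTP with copper were called in each of these fits, in both lines. Between untreated groups APOB was at 0.44 to 0.69 over all alternatives, and its call varied with the method as well as the libraries.

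**Figure D1:**
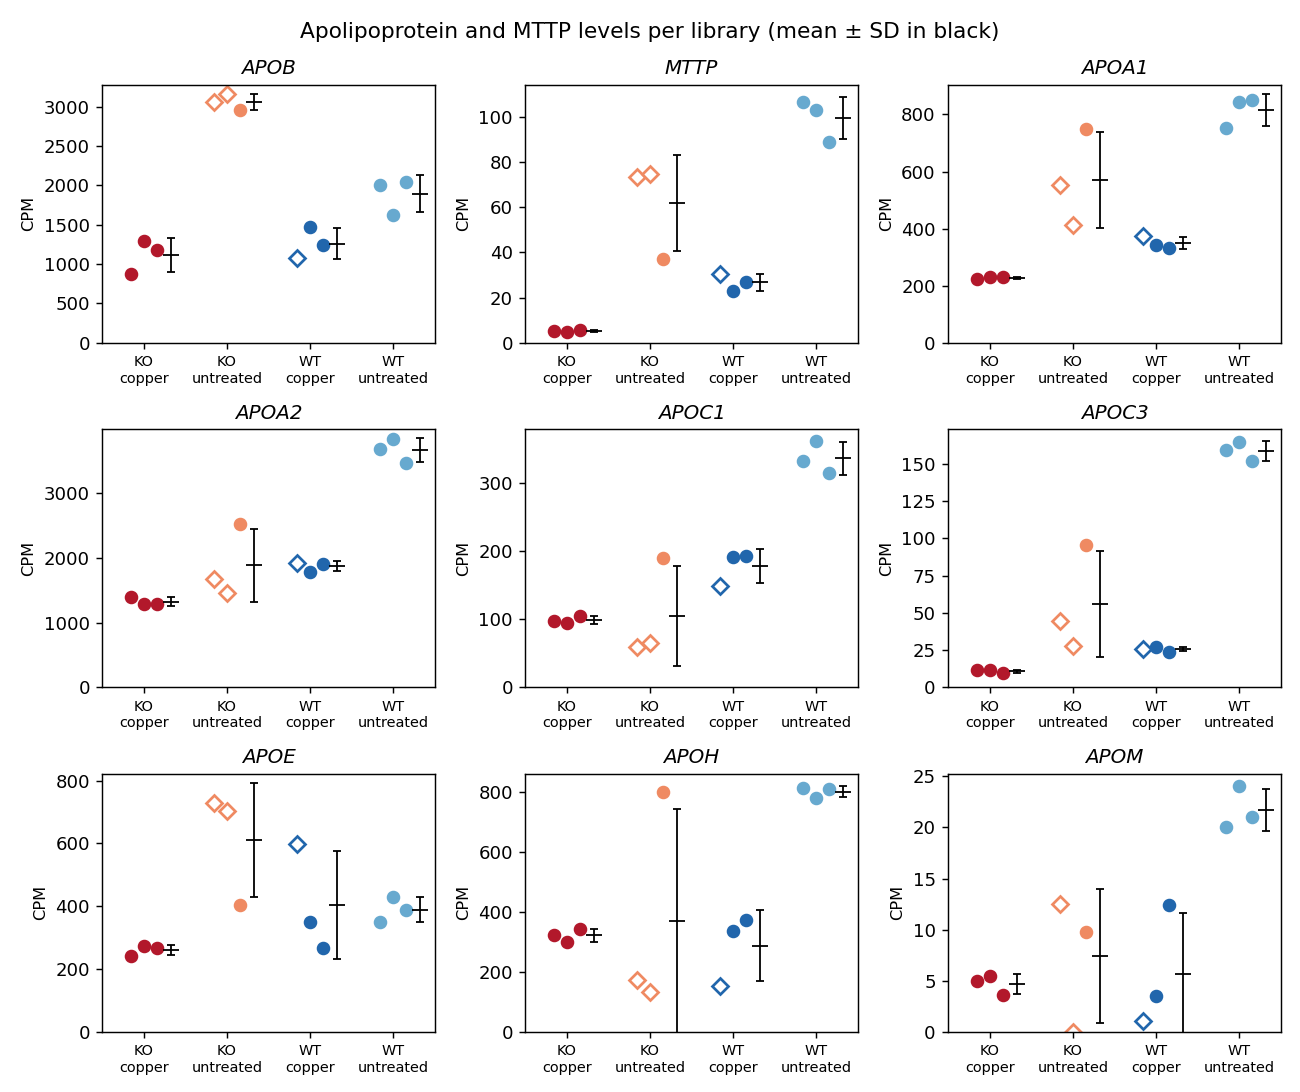
Level of each of the 9 tested genes in CPM, 1 point per library, in KO copper, KO untreated, WT copper and WT untreated cells. Black marks beside the points are mean ± SD (n = 3), cut at 0 for APOH and APOM, and open diamonds are the 3 libraries that stood apart. MTTP sits between 4.61 and 5.57 CPM in copper-treated KO cells and between 89.0 and 107 CPM in untreated wild type cells.

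MTTP (ENSG00000138823.8) had 5.34, 4.61 and 5.57 CPM in copper-treated KO cells, 73.4, 74.7 and 37.2 CPM in untreated KO cells, 30.4, 23.1 and 26.7 CPM in copper-treated wild type cells, and 107, 103 and 89.0 CPM in untreated wild type cells. The 4 groups do not overlap, with untreated wild type cells highest, then untreated KO, copper-treated wild type and copper-treated KO cells. Library 3 of untreated KO cells, at 37.2 CPM, lay well below its other two. In KO cells MTTP averaged 5.17 ± 0.506 CPM with copper, against 61.8 ± 21.3 CPM untreated, a log2 fold change of -3.44 ± 0.33 (SE, adjusted p = 2.5e-05), or 0.0920 of the untreated level, and of -2.66 (adjusted p = 1.3e-10) without the 3 libraries that stood apart. In wild type cells it averaged 26.7 ± 3.66 CPM with copper, against 99.6 ± 9.29 CPM untreated, a log2 fold change of -1.87 ± 0.28 (SE, adjusted p = 0.0012). The gene was thus lower in both copper-treated groups than in either untreated group.

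Between the copper-treated groups MTTP was lower in KO than in wild type cells, by a log2 fold change of -2.39 ± 0.32 (SE, adjusted p = 0.00075), or 0.191 of the wild type level. Between the untreated groups it was lower in KO cells at -0.82 ± 0.27 (SE, adjusted p = 0.038), a value that depended on which untreated KO libraries were used. It was -1.62 (adjusted p = 6.2e-09) without the 3 libraries that stood apart and -0.47 (adjusted p = 0.037) without library 3 of that group. The call was lost without library 3 of copper-treated KO cells, at an adjusted p of 0.0502, and without each of the 3 untreated wild type libraries, at -0.81, -0.79 and -0.92 and adjusted p of 0.092, 0.098 and 0.057. It was also lost with relative log expression factors (-0.75, adjusted p = 0.058), without scaling (-0.71, adjusted p = 0.0501), in DESeq2 (-0.78, adjusted p = 0.053) and with the 2 groups fitted alone (-0.75, adjusted p = 0.16).

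APOB (ENSG00000084674.9) followed another order. It had 879.7, 1299 and 1178 CPM in copper-treated KO cells, 3059.5, 3164 and 2959 CPM in untreated KO cells, 1078, 1467 and 1241 CPM in copper-treated wild type cells, and 2010.3, 1629 and 2048 CPM in untreated wild type cells. Untreated KO cells were highest, untreated wild type cells came next without overlap, and the copper-treated groups overlapped each other below both. In KO cells it averaged 1119 ± 216 CPM with copper, against 3061 ± 103 CPM untreated, a log2 fold change of -1.34 ± 0.22 (SE, adjusted p = 0.00090). In wild type cells the means were 1262 ± 196 CPM with copper and 1896 ± 232 CPM untreated, at -0.56 ± 0.22 (SE, adjusted p = 0.10), which was not called. The difference between untreated KO and untreated wild type cells, 0.57 ± 0.22 (SE, adjusted p = 0.059), was not called either in the main fit, although the libraries of these groups do not overlap. With all libraries it was called under relative log expression factors (0.63, adjusted p = 0.046) and without scaling (0.69, adjusted p = 0.030). DESeq2 (0.61, adjusted p = 0.0081) and limma voom (0.58, adjusted p = 0.039) also called it.

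Of the HDL proteins, APOA1 fell with copper in both lines and APOA2 in wild type cells, and their levels in untreated KO cells varied between libraries. APOA1 (ENSG00000118137.5) had 223, 229 and 230.1 CPM in copper-treated KO cells, 553, 413 and 749 CPM in untreated KO cells, 375, 342 and 333 CPM in copper-treated wild type cells, and 751, 842 and 852 CPM in untreated wild type cells. The 4 groups do not overlap, though the highest untreated KO library and the lowest untreated wild type library differ by little. Copper-treated KO cells averaged 228 ± 3.74 CPM, against 571 ± 169 CPM in untreated KO cells, a log2 fold change of -1.20 ± 0.21 (SE, adjusted p = 0.0012). Copper-treated wild type cells averaged 350.1 ± 22.1 CPM, against 815 ± 55.8 CPM in untreated wild type cells, a log2 fold change of -1.19 ± 0.21 (SE, adjusted p = 0.0028). The copper effect on APOA1 in KO cells minus that in wild type cells was -0.01 ± 0.29 (SE, adjusted p = 0.99).

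Untreated KO cells had less APOA1 than untreated wild type cells, at -0.65 ± 0.20 (SE, adjusted p = 0.030), and at -0.32 (adjusted p = 0.021) without the 3 libraries that stood apart. That call was lost without library 1 or 2 of untreated KO cells, at -0.65 and -0.45 (adjusted p = 0.073 and 0.11), and without each untreated wild type library, at -0.72, -0.63 and -0.64 (adjusted p = 0.059, 0.088 and 0.081). It was also lost without scaling (-0.51, adjusted p = 0.085), without the low-count filter (-0.65, adjusted p = 0.10) and with the 2 groups fitted alone (-0.60, adjusted p = 0.17). Between the copper-treated groups APOA1 was at -0.66 ± 0.20 (SE, adjusted p = 0.052), not called, and at -0.65 (adjusted p = 4.2e-07) without the 3 libraries.

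APOA2 (ENSG00000158874.7) was the most abundant member in 3 of the 4 groups by mean CPM. It had 1399, 1292 and 1285 CPM in copper-treated KO cells, 1672, 1462 and 2523 CPM in untreated KO cells, 1925, 1786 and 1913 CPM in copper-treated wild type cells, and 3692, 3847 and 3471 CPM in untreated wild type cells. Untreated wild type cells were highest and copper-treated KO cells lowest, each apart from the rest, and the other two groups overlapped. In wild type cells it averaged 1874 ± 77.2 CPM with copper, against 3669.8 ± 189 CPM untreated, a log2 fold change of -0.94 ± 0.22 (SE, adjusted p = 0.013). This call was lost without library 2 of copper-treated wild type cells, at -0.90, or library 1 or 2 of untreated wild type cells, at -0.95 and -0.91 (adjusted p = 0.064, 0.054 and 0.060). In KO cells the means were 1325 ± 63.9 CPM with copper and 1886 ± 562 CPM untreated, at -0.38 ± 0.22 (SE, adjusted p = 0.19), and at -0.75 (adjusted p = 3.2e-07) without the 3 libraries. Untreated KO cells had less than untreated wild type cells, at -1.10 ± 0.22 (SE, adjusted p = 0.0040), and at -0.74 without the 3 libraries. The call was lost with the 2 groups fitted alone (-1.05, adjusted p = 0.056). Between the copper-treated groups APOA2 was at -0.53 ± 0.22 (SE, adjusted p = 0.12), not called, and at -0.57 without the 3.

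APOC3 (ENSG00000110245.7), which lies next to APOA1 on chromosome 11, had the steepest fall with copper in wild type cells among the 9 tested members with all libraries. It had 11.4, 11.3 and 9.56 CPM in copper-treated KO cells, 44.3, 27.6 and 95.5 CPM in untreated KO cells, 25.6, 27.0 and 24.0 CPM in copper-treated wild type cells, and 159, 165 and 152 CPM in untreated wild type cells. The groups again do not overlap and stood in the same order as for MTTP and APOA1, with copper-treated wild type cells close below untreated KO cells. KO cells averaged 10.8 ± 1.04 CPM with copper, against 55.8 ± 35.4 CPM untreated, a log2 fold change of -2.27 ± 0.34 (SE, adjusted p = 0.00061). Wild type cells averaged 25.5 ± 1.502 CPM with copper, against 159 ± 6.63 CPM untreated, a log2 fold change of -2.61 ± 0.33 (SE, adjusted p = 0.00049), or 0.164 of the untreated level. The values were -2.97 in KO and -2.58 in wild type cells without the 3 libraries.

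APOC3 was also lower in KO than in wild type cells under either treatment. In untreated cells the log2 fold change was -1.62 ± 0.31 (SE, adjusted p = 0.0035), and -0.93 (adjusted p = 3.7e-06) without the 3 libraries. With copper it was -1.27 ± 0.35 (SE, adjusted p = 0.030). That call was lost without any of the 3 copper-treated KO libraries, at -1.34, -1.31 and -1.17 (adjusted p = 0.091, 0.088 and 0.12), any of the 3 copper-treated wild type libraries, at -1.28, -1.25 and -1.32 (adjusted p = 0.065, 0.084 and 0.056), and untreated wild type library 1 or 2 (adjusted p = 0.051 each).

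APOC1 (ENSG00000130208.5), which inhibits cholesteryl ester transfer protein, had 96.9, 93.8 and 105 CPM in copper-treated KO cells, 58.9, 65.5 and 189 CPM in untreated KO cells, 148, 191 and 193 CPM in copper-treated wild type cells, and 332, 362 and 314 CPM in untreated wild type cells. Untreated wild type cells were highest without overlap, and library 3 of untreated KO cells was about level with copper-treated wild type cells while its other two were the lowest of all. APOC1 was lower in untreated KO than in untreated wild type cells, with means of 105 ± 73.6 and 336 ± 24.0 CPM, a log2 fold change of -1.81 ± 0.34 (SE, adjusted p = 0.0030), of -1.03 without the 3 libraries and of -2.49 without library 3 of untreated KO cells. With copper in KO cells it was at 0.04 ± 0.34 (SE, adjusted p = 0.95), and the sign turned without any scaling beyond the library total, at -0.11, and without the 3 libraries, at -0.77 (adjusted p = 6.4e-06). With copper in wild type cells it was at -0.90 ± 0.33 (SE, adjusted p = 0.090), not called, and at -0.75 (adjusted p = 1.2e-07) without them. The APOC1 result in KO cells thus rested on which untreated libraries were used. Between the copper-treated groups it was at -0.88 ± 0.33 (SE, adjusted p = 0.099), and at -1.05 (adjusted p = 3.1e-10) without the 3.

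**Figure D2:**
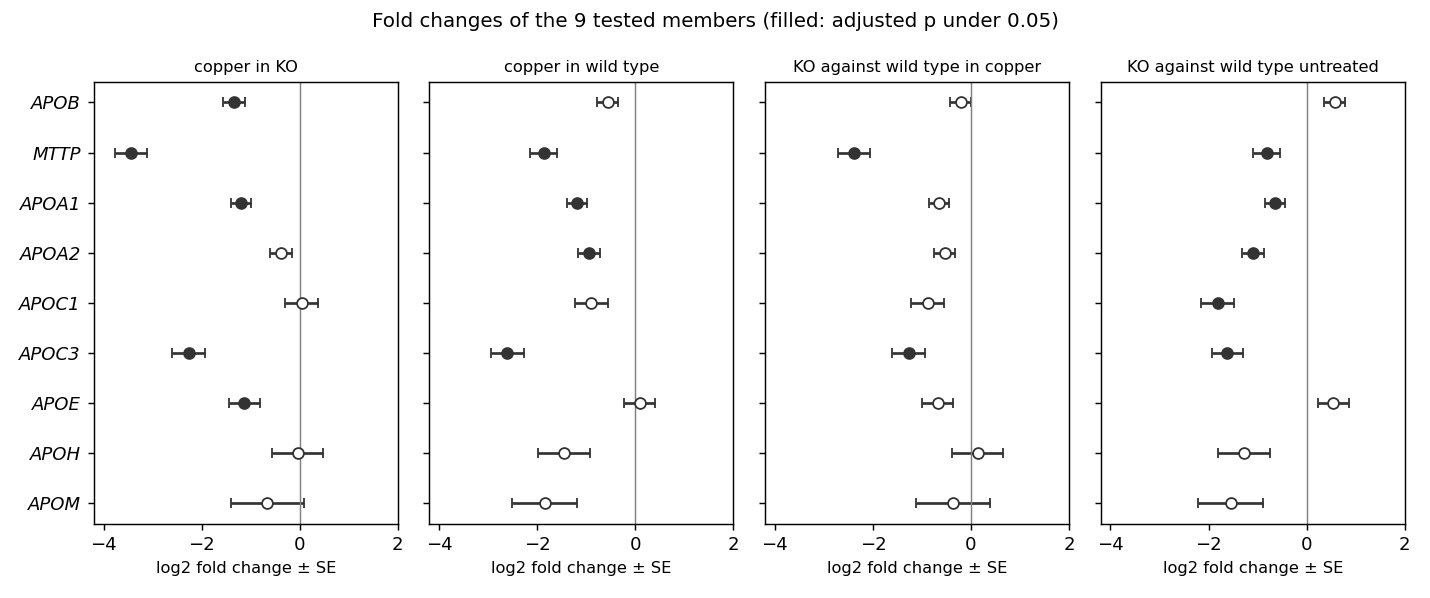
Log2 fold change ± SE of the 9 tested genes in the 4 comparisons; filled points have an adjusted p under 0.05. With copper, MTTP and APOC3 lie farthest below 0 in both lines, at -3.44 and -2.27 in KO cells and -1.87 and -2.61 in wild type cells.

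APOE (ENSG00000130203.5) fell with copper in KO cells and was not called in wild type cells. It had 241, 273 and 267 CPM in copper-treated KO cells, 729, 703 and 402 CPM in untreated KO cells, 598, 349 and 268 CPM in copper-treated wild type cells, and 350.1, 429 and 388 CPM in untreated wild type cells. The 3 highest values, 729, 703 and 598 CPM, are those of the 3 libraries that stood apart. Copper-treated KO cells lie below both untreated groups, and the remaining pairs of groups overlap. In KO cells APOE averaged 261 ± 16.7 CPM with copper, against 611 ± 182 CPM untreated, a log2 fold change of -1.13 ± 0.32 (SE, adjusted p = 0.017), and of -0.45 (adjusted p = 0.0051) without the 3 libraries. This call was lost without any of the 3 copper-treated KO libraries, at -1.08, -1.15 and -1.11 (adjusted p = 0.065, 0.0501 and 0.057), or library 1 of untreated KO cells, at -0.97 (adjusted p = 0.061). In wild type cells the means were 405 ± 172 CPM with copper and 389 ± 39.2 CPM untreated, at 0.09 ± 0.31 (SE, adjusted p = 0.88), and the sign turned without the 3 libraries, at -0.28 (adjusted p = 0.035). Untreated KO against untreated wild type cells gave 0.54 ± 0.31 (SE, adjusted p = 0.20) with all libraries and -0.15 without the 3. Between the copper-treated groups APOE was at -0.68 ± 0.32 (SE, adjusted p = 0.18), not called, and at -0.33 without the 3.

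APOH (ENSG00000091583.6) was low in the libraries where APOE was high. It had 324, 301 and 342 CPM in copper-treated KO cells, 172, 134 and 802 CPM in untreated KO cells, 152, 337 and 372 CPM in copper-treated wild type cells, and 815, 781 and 809.7 CPM in untreated wild type cells. The 3 lowest values, 134, 152 and 172 CPM, are those of the 3 libraries that stood apart, and library 3 of untreated KO cells lay within the range of untreated wild type cells. With all libraries no comparison of APOH was called in the main fit. Copper in wild type cells was called lower without the low-count filter (adjusted p = 2.3e-05) and in DESeq2 (adjusted p = 0.042). KO against wild type untreated was called lower without the filter (adjusted p = 0.00021), in limma voom (adjusted p = 0.025) and with a replicate block (adjusted p = 0.031). In the main fit copper gave -0.04 ± 0.52 (SE, adjusted p = 0.96) in KO cells and -1.46 ± 0.53 (SE, adjusted p = 0.084) in wild type cells. These values were -1.14 (adjusted p = 4.5e-11) and -1.12 (adjusted p = 1.5e-12) without the 3 libraries. KO against wild type was at -0.20 (adjusted p = 0.16) untreated and at -0.22 (adjusted p = 0.051) in copper without these 3, against -1.28 ± 0.53 (SE, adjusted p = 0.080) and 0.14 ± 0.52 (SE, adjusted p = 0.89) with all libraries. Without library 3 of untreated KO cells alone, APOH was at 1.10 (adjusted p = 0.0035) for copper in KO, the opposite direction, and at -2.43 (adjusted p = 6.1e-06) for KO against wild type untreated.

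APOM (ENSG00000204444.6) was the least abundant tested member. It had 4.99, 5.44 and 3.58 CPM in copper-treated KO cells, 12.5, 0 and 9.76 CPM in untreated KO cells, 1.07, 3.49 and 12.4 CPM in copper-treated wild type cells, and 20.03, 24.0 and 21.1 CPM in untreated wild type cells. The 0 in library 2 of untreated KO cells, the shallowest, allows up to 3.07 CPM. Untreated wild type cells were highest without overlap, and the other 3 groups overlap. With all libraries, copper in wild type was called without the low-count filter (-1.87, adjusted p = 0.00014) and in limma voom (-2.31, adjusted p = 0.048). Leaving out library 3 of copper-treated wild type cells gave -3.17 (adjusted p = 0.021). KO against wild type untreated was called without the filter (adjusted p = 0.0012). The main fit of all libraries called no comparison. It gave -1.84 ± 0.66 (SE, adjusted p = 0.082) for copper in wild type and -1.55 ± 0.66 (SE, adjusted p = 0.089) for KO against wild type untreated. Without the 3 libraries these were -1.35 (adjusted p = 0.00044) and -1.35 (adjusted p = 0.0024). APOM shares 8.19% of its exon bases with BAG6 on the opposite strand, and the strand setting of the counting is not given.

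**Figure D3:**
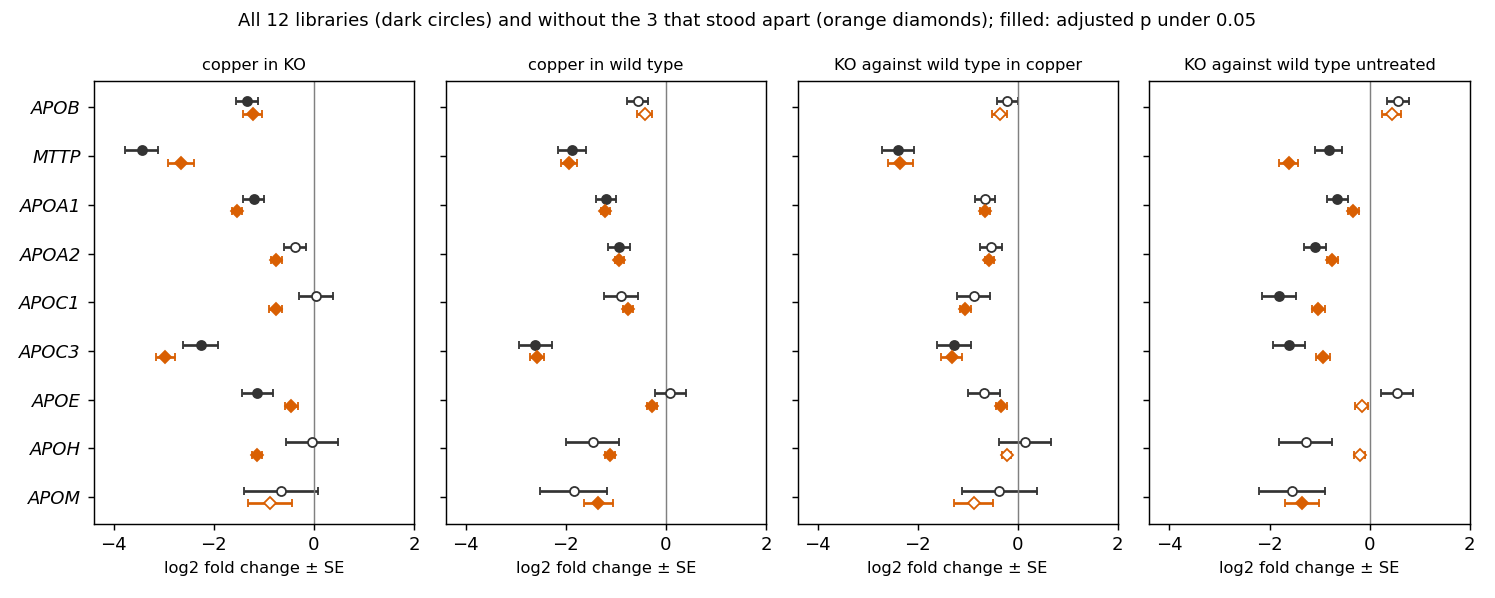
Log2 fold change ± SE of each tested gene in each comparison, in the fit of all 12 libraries (dark circles) and in the fit without the 3 libraries that stood apart (orange diamonds). Copper in KO cells moves for APOH to -1.14 and for APOC1 to -0.77 without them, while MTTP, APOC3 and APOA1 are below 0 in both fits.

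The copper effects of the lines were also set against each other. The difference, KO minus wild type, was called for 0 of the 9 members by edgeR's quasi-likelihood test, where 4.93% of all genes were called, and 3 members had an unadjusted p under 0.05. These were MTTP at -1.57 ± 0.42 (SE, adjusted p = 0.051), APOE at -1.22 ± 0.45 (SE, adjusted p = 0.097) and APOB at -0.78 ± 0.30 (SE, adjusted p = 0.11). DESeq2 called 3 members, MTTP among them, where 1768 of 10997 genes were called, and limma voom 0, where 160 of 11051 were. Without the 3 libraries the difference was -0.72 (adjusted p = 0.16) for MTTP, -0.17 (adjusted p = 0.58) for APOE and -0.80 (adjusted p = 0.073) for APOB, and 0 members were called, where 8.77% of all genes were. Without library 3 of untreated KO cells 7 members were called, all but APOA1 and APOM, with MTTP at -1.96 (adjusted p = 7.6e-05), in a fit that called 51.5% of all genes. APOA2, APOC1, APOC3, APOH and APOM had positive differences with all libraries, from 0.34 to 1.42, none of them called.

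The make-up of the apolipoprotein transcripts shifted between groups. APOA2 held 43.9, 36.8 and 37.5% of the members' counts in copper-treated KO cells, 26.2, 24.2 and 32.5% in untreated KO cells, 44.4, 39.5 and 43.6% in copper-treated wild type cells, and 44.8, 47.0 and 42.6% in untreated wild type cells. APOB held 27.6, 37.0 and 34.4% in copper-treated KO cells, 48.0, 52.3 and 38.1% in untreated KO cells, 24.9, 32.4 and 28.3% in copper-treated wild type cells, and 24.4, 19.9 and 25.1% in untreated wild type cells. Untreated KO cells had the lowest APOA2 shares and the highest APOB shares, without overlap with any other group.

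**Figure D4:**
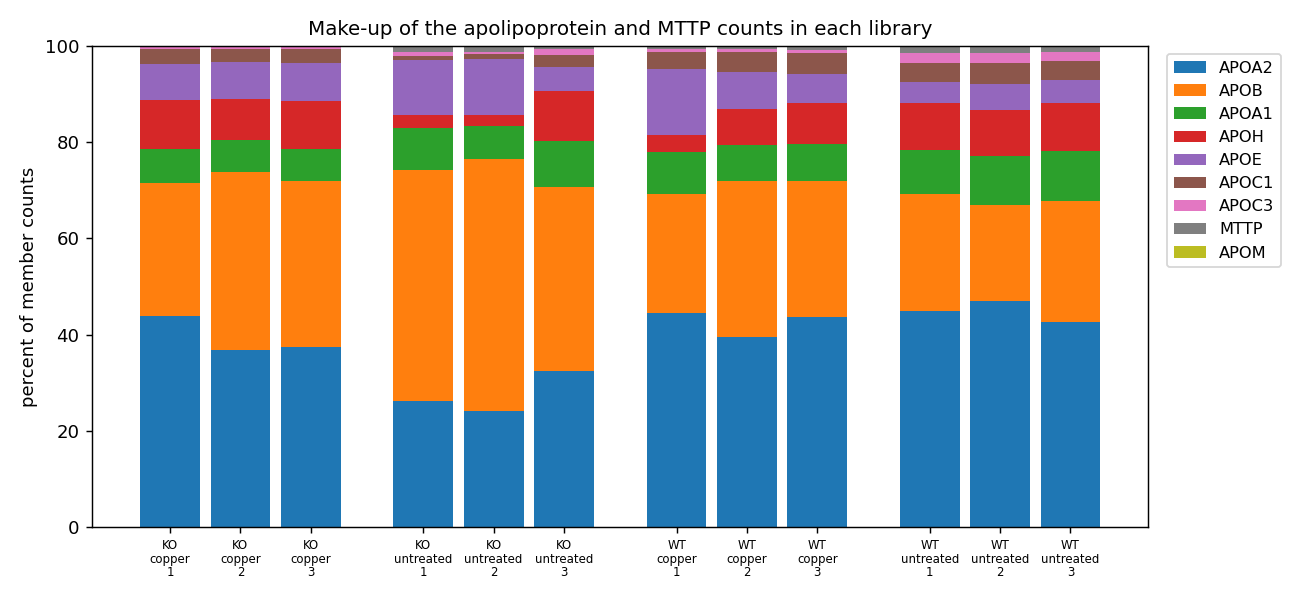
Percent of the members' counts held by each gene, 1 stacked bar per library, in KO copper, KO untreated, WT copper and WT untreated cells. APOB takes 38.1 to 52.3% in untreated KO cells and 19.9 to 25.1% in untreated wild type cells.

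Ratios within a library do not depend on its scaling, but their counting error is larger where counts are few. In copper-treated KO cells MTTP had 15, 11 and 14 counts and APOC3 had 32, 27 and 24. The ratio of APOB to MTTP transcripts was 165, 282 and 211 in copper-treated KO cells, 41.7, 42.3 and 79.5 in untreated KO cells, 35.4, 63.5 and 46.4 in copper-treated wild type cells, and 18.9, 15.8 and 23.0 in untreated wild type cells. Copper-treated KO cells lie above all others and untreated wild type cells below, so that each copper-treated group held more APOB transcripts per MTTP transcript than its untreated counterpart in wild type and in KO cells, without overlap. For the neighbours APOA1 and APOC3 on chromosome 11 the ratio was 19.6, 20.3 and 24.1 in copper-treated KO cells, 12.5, 14.9 and 7.84 in untreated KO cells, 14.6, 12.6 and 13.9 in copper-treated wild type cells, and 4.71, 5.11 and 5.62 in untreated wild type cells. The ratio was thus higher with copper than without it in each line, again without overlap. For APOE and APOC1, neighbours on chromosome 19, the ratio was 2.49, 2.91 and 2.54 in copper-treated KO cells, 12.4, 10.7 and 2.12 in untreated KO cells, 4.03, 1.82 and 1.39 in copper-treated wild type cells, and 1.05, 1.18 and 1.23 in untreated wild type cells. The high APOE to APOC1 ratios belong to the 3 libraries that stood apart.

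**Figure D5:**
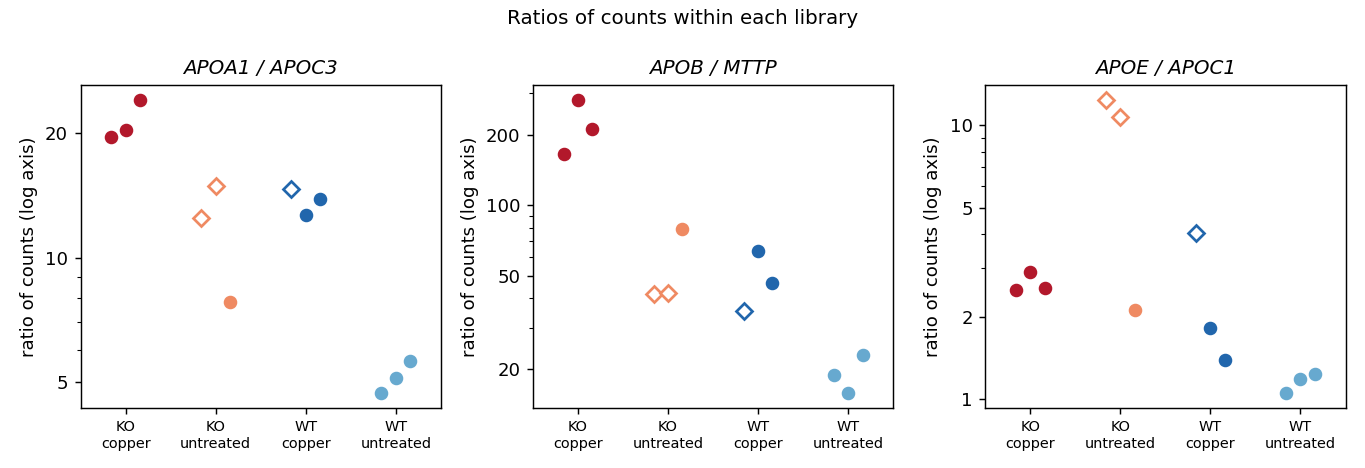
Ratio of transcripts within each library on a log axis for APOA1 to APOC3, APOB to MTTP and APOE to APOC1; open diamonds are the 3 libraries that stood apart. APOB to MTTP is 165 to 282 in copper-treated KO cells and 15.8 to 23.0 in untreated wild type cells.

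Across the 12 libraries, log2 CPM of APOA1 and APOC3 had a Pearson r of 0.988, APOA2 and APOC3 of 0.935, and APOA1 and MTTP of 0.901, while APOE and APOC1 had -0.249, APOE and APOH -0.506 and APOB and APOC1 -0.120. These describe libraries that share groups, depth and the 3 that stood apart. The non-member genes most like each member by the same r over 12 libraries were SERPIND1, FMO5 and TMEM141 for MTTP (0.995, 0.991 and 0.990), WNK2, SERPINF2 and SLC47A1 for APOA1 (0.976, 0.974 and 0.972), TAFA5, SHPK and ACSL4 for APOA2 (0.984, 0.973 and 0.973), and NOL4L, PSRC1 and WNK2 for APOC3 (0.974, 0.972 and 0.970). They were F5, PROX1 and GPAM for APOB (0.972, 0.957 and 0.952), ATP1B1, DOK4 and FDFT1 for APOC1 (0.987, 0.987 and 0.982), and PTMS, CD320 and ENTPD6 for APOE (0.976, 0.974 and 0.970). For APOH they were PTTG1, NDUFAF3 and MAL2 (0.995, 0.989 and 0.987), and for APOM DYM, RSBN1L and FBXL4 (0.945, 0.937 and 0.934). WNK2 appeared for both APOA1 and APOC3.

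Other apolipoproteins changed in both directions. Of 14 listed genes 9 were tested; 3 rose and 3 fell with copper in KO cells, and 1 rose and 2 fell in wild type cells. Over all genes tested 15.2% rose and 18.5% fell in KO cells, and 8.23% rose and 6.68% fell in wild type cells. The list's median log2 fold change was -0.70 in KO and 0.29 in wild type cells. APOA5, which promotes triglyceride clearance and lies in the same cluster as APOA1 and APOC3, had 26.4, 26.0 and 27.5 CPM in copper-treated KO cells, 145.5, 102.4 and 220.6 CPM in untreated KO cells, 34.2, 17.4 and 27.9 CPM in copper-treated wild type cells, and 76.7, 83.3 and 80.6 CPM in untreated wild type cells. It fell with copper in both lines, at -2.43 ± 0.29 (SE, adjusted p = 0.00013) in KO and -1.57 ± 0.28 (SE, adjusted p = 0.0037) in wild type cells. It was higher in untreated KO than in untreated wild type cells, at 0.83 ± 0.27 (SE, adjusted p = 0.035). CLU, the secreted chaperone also called apolipoprotein J, rose with copper in KO cells to 1121 CPM, against 481 CPM in untreated KO cells, at 1.35 ± 0.22 (SE, adjusted p = 0.0010). Its copper effect was larger in KO than in wild type cells by 1.27 ± 0.31 (SE, adjusted p = 0.044). APOF, an inhibitor of cholesteryl ester transfer protein, fell in both lines, at -1.25 ± 0.35 in KO and -1.86 ± 0.35 in wild type cells (SE).

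Among 19 tested genes of particle assembly and secretion, 3 rose and 1 fell with copper in KO cells, and 0 rose and 4 fell in wild type cells. The counts in KO cells are near or below the all-gene shares of 15.2% rising and 18.5% falling, and in wild type cells 6.68% of all genes fell. In untreated cells 1 was higher and 9 were lower in KO than in wild type, where 17.9% of all genes were higher and 14.0% lower. The median log2 fold change was 0.19 with copper in KO cells, -0.64 with copper in wild type cells and -0.83 between the untreated lines. SORT1, the receptor sortilin that binds APOB in the Golgi, fell with copper in wild type cells to 39.4 CPM, against 106 CPM untreated, at -1.40 ± 0.19 (SE, adjusted p = 0.00080), and was lower in untreated KO than in untreated wild type cells at -1.40 ± 0.20 (SE, adjusted p = 0.00060). SOAT2, which makes cholesteryl esters, fell with copper in wild type cells at -1.44 ± 0.28 (SE, adjusted p = 0.0064). DGAT1, which makes triglyceride, fell with copper in KO cells to 12.7 CPM, against 71.9 CPM untreated, at -2.38 ± 0.33 (SE, adjusted p = 0.00033). SAR1A, a GTPase of the vesicles that leave the endoplasmic reticulum, rose in KO cells at 0.82 ± 0.16 (SE, adjusted p = 0.0026). P4HB, the partner subunit of MTTP, had means of 578 CPM with copper and 566 CPM without it in KO cells, at 0.15 ± 0.20 (SE, adjusted p = 0.59), and 635 and 869 CPM in wild type cells, at -0.43 ± 0.20 (SE, adjusted p = 0.18). It was named for its role and not by its p, and its copper-treated and untreated values were not called different in either line.

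Genes of lipid loading, HDL remodelling and lipases gave 9 tested members, of which 1 rose and 4 fell with copper in KO cells, and 0 rose and 2 fell in wild type cells, with medians of -0.94 and -0.67 on the log2 scale. ABCA1, the exporter that passes lipid to APOA1, fell in both lines, at -1.77 ± 0.30 (SE, adjusted p = 0.0011) in KO and -1.28 ± 0.30 (SE, adjusted p = 0.015) in wild type cells. ANGPTL8, a regulator of lipoprotein lipase, fell in KO cells to 7.67 CPM, against 94.8 CPM untreated, at -3.49 ± 0.49 (SE, adjusted p = 0.00039), and its copper effect differed between the lines by -3.92 ± 0.64 (SE, adjusted p = 0.018). Among 14 tested receptor and uptake genes, 2 rose and 3 fell with copper in KO cells, and 3 rose and 4 fell in wild type cells, with medians of -0.13 and -0.44. Beside them, 15.2% of all genes rose and 18.5% fell in KO cells, near the receptors' own counts, and 8.23% rose and 6.68% fell in wild type cells. MYLIP, the ubiquitin ligase that degrades the LDL receptor, rose to 63.7 CPM in copper-treated KO cells, against 4.78 CPM in untreated KO cells, at 3.87 ± 0.31 (SE, adjusted p = 8.1e-06), and to 18.6 CPM in copper-treated wild type cells, against 3.47 CPM in untreated wild type cells, at 2.43 ± 0.30 (SE, adjusted p = 0.00043). LRP1, a receptor for APOE-bearing remnants, fell with copper in KO cells to 17.4 CPM, against 83.8 CPM untreated, at -2.15 ± 0.34 (SE, adjusted p = 0.00082).

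Among regulators of apolipoprotein genes, several were lower with copper and none was called higher. Of 28 tested, 11 fell and 0 rose in KO cells, and 8 fell and 0 rose in wild type cells, with median log2 fold changes of -0.81 and -0.62. Over all genes tested 18.5% fell and 15.2% rose in KO cells, and 6.68% fell and 8.23% rose in wild type cells. PPARGC1A, a coactivator of HNF4A, fell with copper in wild type cells at -2.11 ± 0.34 (SE, adjusted p = 0.0021), and FOXA2, a pioneer factor of liver genes, fell at -1.04 ± 0.19 (SE, adjusted p = 0.0046). RXRA, the dimer partner of several lipid-sensing receptors, fell in KO cells to 34.0 CPM, against 147 CPM untreated, at -2.002 ± 0.22 (SE, adjusted p = 8.3e-05). A1CF, a cofactor of APOB mRNA editing, fell in KO cells to 96.9 CPM, against 438 CPM untreated, at -2.07 ± 0.31 (SE, adjusted p = 0.00050). HNF4A is given for its role in the background above and not by its p. HNF4A fell with copper in wild type cells at -1.23 ± 0.33 (SE, adjusted p = 0.026) and was not called in KO cells, at -0.41 ± 0.32 (SE, adjusted p = 0.34). Its values were 68.7, 54.0 and 60.9 CPM in copper-treated KO cells and 61.0, 55.3 and 149.5 CPM in untreated KO cells, with library 3 high.

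Without the 3 libraries that stood apart, more list members were tested and called. Of 29 tested regulators 21 fell and 0 rose with copper in KO cells, and 18 fell and 2 rose in wild type cells. Among 19 assembly and secretion genes 5 fell and 3 rose with copper in KO cells, and 11 fell and 2 rose in wild type cells. In that fit 20.5% of all genes fell and 19.1% rose in KO cells, and 19.6% fell and 20.4% rose in wild type cells. APOA5, CLU, SORT1, DGAT1, ABCA1, ANGPTL8, MYLIP, LRP1, RXRA and A1CF kept their call and direction in the copper comparisons named above, with LRP1 at -1.47 and ANGPTL8 at -2.33 in KO cells.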

How the data were processed

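The 12 libraries came from 100 ng of total RNA each, made with the QuantSeq 3′ kit and read single-end for 75 bp, per the labels' protocols. The values the authors deposited are raw counts of reads per Ensembl gene, not normalized. STAR 2.3.0, HTSeq and build hg19 are named in the submitters' processing notes. Annotation release and strand setting are not stated there, and the coordinates of a RefSeq promoter window are the only ones printed. Symbols from GENCODE v29 and gene name tables covered 99.5% of counts.

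edgeR 4.0.16 in R 4.3.3 kept 11051 genes (filterByExpr), scaled libraries by TMM and fitted 4 group means to all 12 libraries (robust quasi-likelihood, biological coefficient of variation 29.1%). P-values were adjusted over the 11051 genes by the Benjamini-Hochberg method and called at 0.05; "rose" and "fell" mean past that threshold. SE is the log2 fold change over the square root of F. Alternatives used DESeq2 1.42.0 and limma 3.58.1. The edgeR fit of all 12 libraries was tested on simulated counts in which no library was made to stand apart. The other fits were not.

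Members and gene lists were chosen with earlier results of these data known. All 10 members were named, and list genes by at most 5 per list and comparison with the smallest adjusted p among those called; exceptions are marked, and some list genes are not reported here. The fit without 3 libraries was added after seeing the data. The labels call replicates biological and do not say how they were separated, so p-values measure the spread between these libraries. No replicate pair differed by less than sampling noise. Floors cover counting error only, while SD and SE include the spread between libraries. The main fit took libraries as unpaired, and pairing by replicate number was not settled.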

Additional observations from a re-analysis of the deposited data

How the results depend on the processing

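The members called numbered 5 for copper in KO, 4 for copper in wild type, 5 between the untreated lines, 2 between the copper-treated lines and 0 for the difference of the copper effects. The difference gave 1 call with relative log expression factors, 1 without scaling beyond the library total, 3 without the low-count filter and 3 in DESeq2. MTTP was among those called in each of these fits, and its difference was called in 5 of 19 alternatives. Over all genes these fits called 694 of 11051, 951 of 11051, 2366 of 24210 and 1768 of 10997, in that order. Copper in wild type gave 7 calls without the filter, where 2135 of 24210 genes were called. It gave 7 when its 2 groups were fitted alone, where 3044 of 10437 genes were called. That kind of fit gave 2 for KO against wild type untreated, where 1421 of 10742 genes were called. It gave 5 in copper, where 2695 of 10155 were. DESeq2 gave 4 for KO against wild type in copper, where 1872 of 12405 genes were called. Without the 3 libraries that stood apart the calls were 8 for copper in KO, 8 for copper in wild type and 6 between the copper-treated lines. Leaving out 1 library gave 4 to 7 for copper in KO and 3 to 8 for copper in wild type. It gave 3 to 8 for KO against wild type untreated, 1 to 6 in copper and 0 to 7 for the difference. Each was highest without untreated KO replicate 3, in a fit that called 6635, 3783, 6738, 3563 and 5888 of 11429 genes, in that order.

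Of 891 values under alternatives, 763 kept direction and side of the threshold, 32 lost the call, 68 gained it and 28 changed sign. Of the 16 called values 0 changed sign, and 10 were called under all alternatives. Signs changed for copper in KO in APOC1 (-0.11 without scaling, -0.041 without the filter, -0.24 to 0.70 leaving out 1 library, -0.77 without the 3 libraries) and in APOH (0.40 in limma voom, -0.44 to 1.10 leaving out 1 library). They changed for KO against wild type in copper in APOM (0.12 in limma voom, -0.82 to 0.95 leaving out 1 library) and APOH (-0.18 to 0.38 leaving out 1 library, -0.22 without the 3), and for copper in wild type in APOE (-0.33 to 0.31 leaving out 1 library, -0.28 without the 3). For KO against wild type untreated APOE was at -0.15 without the 3. The difference changed sign in APOA1 (0.029 in limma voom, -0.23 to 0.089 leaving out 1 library) and, without the 3, in APOC1 (-0.018), APOC3 (-0.39) and APOH (-0.020). The causes were not tested.

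Of 18 same-numbered pairs, 2 had deviations correlated above 0.1, in a range from -0.22 to 0.61. Both joined untreated KO and copper-treated wild type cells, at 0.49 for replicate 1 and 0.61 for replicate 3. These groups hold the 3 libraries that stood apart. Pairs with different numbers were not compared, so pairing by replicate number was not settled. With a replicate block the calls were 5 for copper in KO and 4 for copper in wild type. They were 6 for KO against wild type untreated, 2 in copper and 0 for the difference. Of 11051 genes that fit called 3715, 1490, 3521, 1274 and 113, in that order. It put APOH at 0.24 for copper in KO and APOA1 at 0.0060 for the difference. Without scaling, the median of all genes was -0.12 for copper in KO and 0.11 between the untreated lines, beside 0.01 and -0.02. APOM, at 0 counts in the shallowest library, is limited by depth.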
